A study of Oryza sativa Japonica Group with 4 samples.

Results

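The protein phosphatases 2C (PP2C) of rice were described in roots of nitrogen-starved seedlings with and without a short glutamate treatment. Genes were taken as members when their symbol or a synonym in the gene table was PP2C followed by a number, with or without the prefix Os, and when the array carried a probe set assigned to that gene alone. This gave 55 of the 17905 genes measured. The gene table holds 60 such names, and the other 5, PP2C41, PP2C49, PP2C50, PP2C65 and PP2C77, had no probe set of their own and were not analysed here. All plants were Oryza sativa ssp. Japonica cv. TNG67, germinated in the dark for 3 days and grown for 2 weeks in hydroponic solution without ammonium nitrate under a 12-h photoperiod. At an age of 17 days the seedlings were kept for 30 min in solution without nitrogen (−N, 2 arrays) or with 2.5 mM glutamate (+Glu, 2 arrays). The array methods of the study do not say whether the −N seedlings were also moved to fresh solution. Both groups were starved of nitrogen before these 30 min, and the labels give glutamate as the difference between them.

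PP2C enzymes remove phosphate from serine and threonine residues and need magnesium or manganese ions for this. In plants the family is large and falls into clades by sequence. Clade A holds the co-receptors of the hormone abscisic acid (ABA). Without the hormone they keep SnRK2 kinases, called SAPK in rice, dephosphorylated and inactive, and ABA bound to a receptor of the PYR/PYL/RCAR family blocks the phosphatase so that the kinase is released to act on bZIP transcription factors. Clade A genes are themselves known to be induced by ABA, which gives the pathway a negative feedback. Phosphatases of other clades are known to act on MAP kinases, on receptor kinases of immunity and, in Arabidopsis, on the proton pump of the plasma membrane.

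Root RNA was measured on Affymetrix rice arrays, and each probe set gave 1 intensity per array on a linear scale. The median intensity of all probe sets was between 19.3 and 23.9 on the 4 arrays. The replicates of a group were not at the same level: replicate 2 was brighter than replicate 1 in 45 of the 55 PP2C genes in −N and in 46 in +Glu, against 76.4% and 79.6% of all genes. The labels call the replicates biological and do not say whether same-numbered arrays share a planting, so p values measure the spread between these samples. Of the root markers, the silicon transporter gene Lsi1 had intensities of at least 7085 on all arrays, while SCR1 was at 8.74 to 12.0, below the array medians. Of 5 leaf markers, the chlorophyll-binding protein gene CAB2R was at 8748 to 10780 in these roots and RBCS1 at 4.01 to 4.91. The leaf markers rca and rbcS were 3.35-fold and 3.85-fold brighter in −N replicate 2 than in −N replicate 1, and PPDKB 1.65-fold. CAB2R was 1.23-fold brighter in −N replicate 2, and RBCS1 1.14-fold dimmer. Of the root markers, IRT1 was 2.49-fold, Lsi2 2.08-fold, SHR1 1.49-fold, Lsi1 1.31-fold and PT6 1.02-fold brighter in −N replicate 2, and SCR1 1.18-fold dimmer. The summed intensity of the leaf markers was 9629 and 13560 in −N and 12490 and 11120 in +Glu, and that of the 6 measured root markers 7997 and 11170 in −N and 8732 and 9943 in +Glu. The part of these differences in the results was not tested. Whole roots were extracted, so fewer cells of a type and less RNA per cell cannot be told apart.

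Most PP2C genes, like most genes on the array, had nearly the same level with and without glutamate, and a small set was higher in +Glu. The log2 fold change (+Glu over −N) lay within 0.25 of 0, a fold difference under 1.19, in 40 of 55 genes (72.7%, against 72.1% of all genes). Its median was 0.037, against 0.026 over all genes. The upper end differed more: the 90th percentile of the log2 fold change was 0.87 for the PP2C genes and 0.40 for all genes. The 10th percentile was −0.20 for the PP2C genes and −0.24 for all genes. At least 2-fold higher values were found in 3 PP2C genes and at least 2-fold lower values in 0, where 1.90% and 0.156% of all genes were past these limits. The lowest log2 fold change of a PP2C gene was −0.35.

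The 3 genes that were at least 2-fold higher in +Glu also had an unadjusted p under 0.05 from limma's moderated test. They were PP2C30, PP2C32 and PP2C68, or 3 of 55 where 1.68% of all genes passed both limits, and 0 were lower by the same limits, where 0.0447% of all genes were. Without the 2-fold limit 6 PP2C genes were higher at an unadjusted p under 0.05 and 0 were lower, where 3.81% and 0.374% of all genes were. After Benjamini-Hochberg adjustment over all genes 0 of 55 passed in either direction (0.00% of all genes), and the smallest adjusted p of a PP2C gene was 0.628. By order alone, both +Glu arrays lay above both −N arrays in 12 PP2C genes and below them in 4, where this held for 14.9% and 10.1% of all genes. This split depended on scaling, with 13 above and 13 below after quantile normalization and 19 above and 7 below after median centring. Of all 17905 genes, 2901 were above and 2742 below after quantile normalization, and 3859 above and 1464 below after median centring. The log2 fold change was larger than the gap between the replicates of either group in 12 of the 55 genes, of which 10 were higher in +Glu. This held for 16.7% of all genes, or 2991 genes, of which 1856 were higher. With 2 arrays against 2, an exact permutation test of 1 gene cannot give a two-sided p below 0.333, so the p values here rest on the spread that limma pools over genes. By Os locus number, which the gene table does not hold, the study lists phosphatase 2C family genes among its glutamate-induced genes. It also reports more than 2-fold induction of its listed genes by quantitative RT-PCR. A phosphatase 2C gene is among those it calls preferentially induced by glutamate. The phosphatase genes it lists may be among the members, so the direction of the highest members is not independent evidence.

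**Figure D1:**
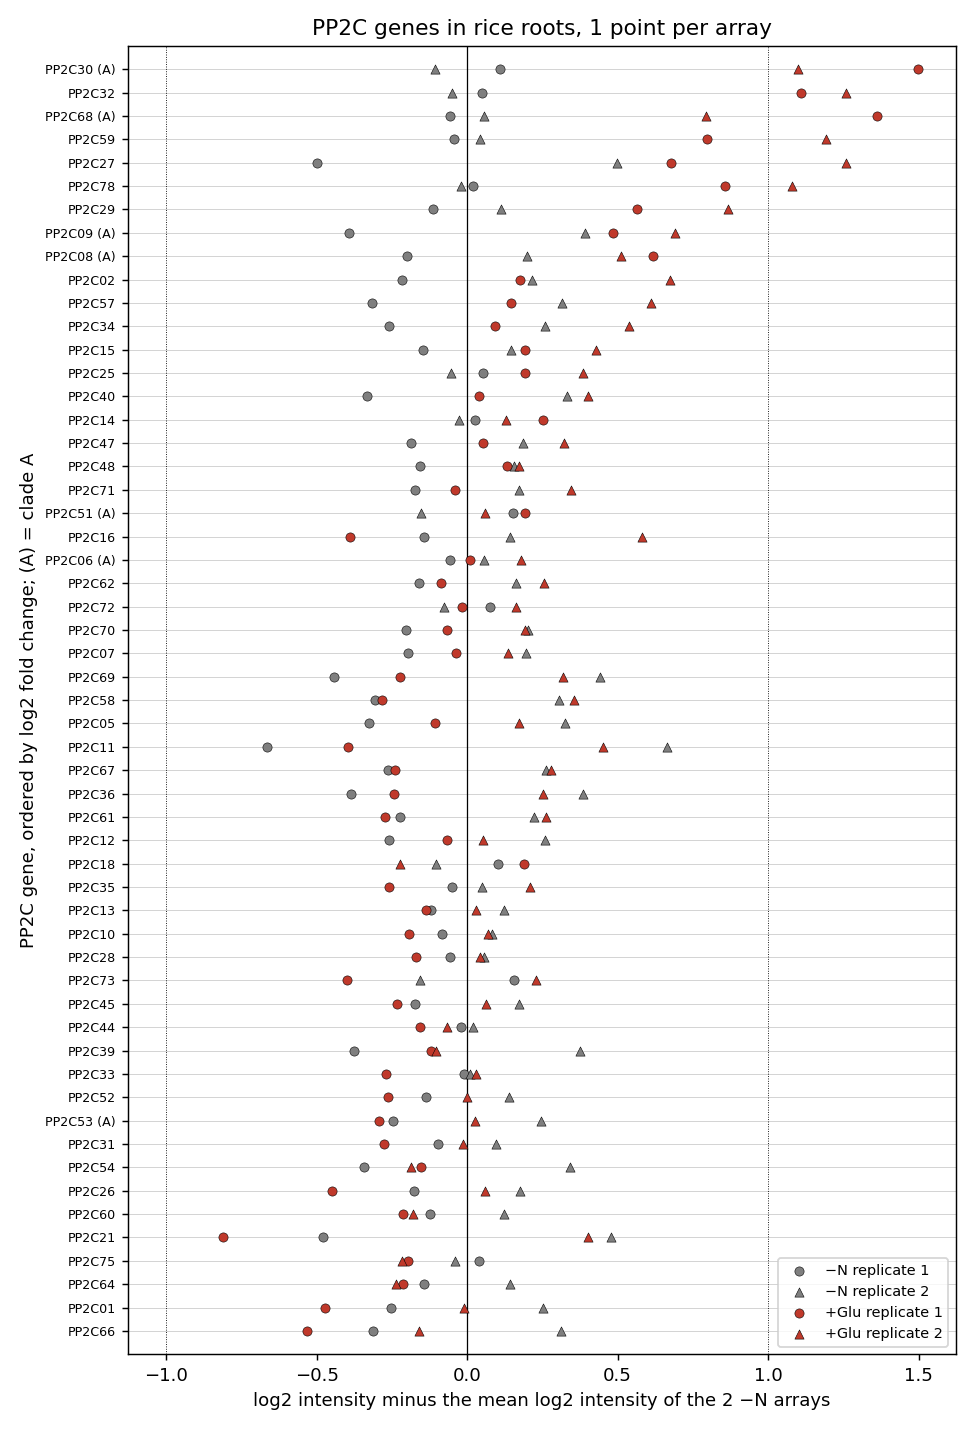
Each row is 1 of the 55 PP2C genes and each point 1 array, as log2 intensity minus the mean log2 intensity of both −N arrays of that gene, ordered by log2 fold change; circles are replicate 1, triangles replicate 2, and dotted lines mark a 2-fold difference. In the first 9 rows both +Glu arrays lie to the right of both −N arrays, and in most rows below them the triangles lie to the right of the circles in both groups.

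**Figure D2:**
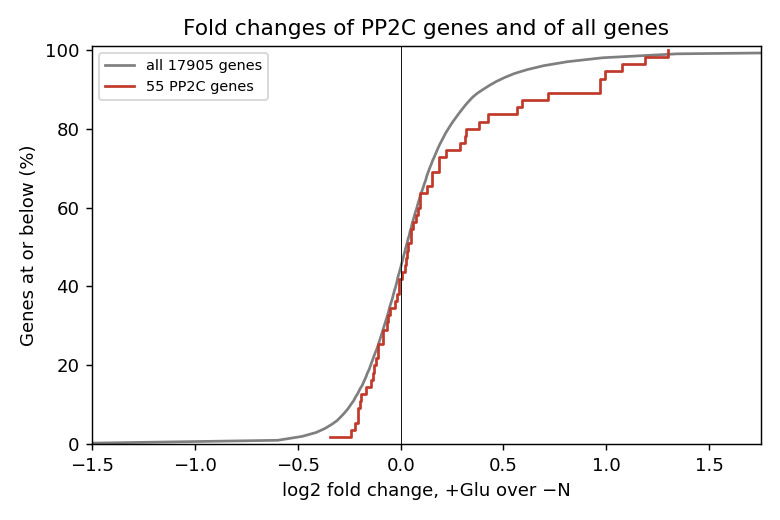
Cumulative share (%) of genes at or below each log2 fold change (+Glu over −N) for the 55 PP2C genes and for all 17905 genes. The curves run close together up to a log2 fold change of about 0.2, and the PP2C curve then lies lower, with 9 PP2C genes between 0.56 and 1.30.

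Of the 12 genes with higher +Glu arrays, 4 belong to clade A, the group of ABA co-receptors. Of the 10 rice genes assigned to the clade, 7 were measured, and in 4 of these 7 the +Glu arrays lay above the −N arrays, in 0 below. Among the other 48 PP2C genes the +Glu arrays lay above in 8 and below in 4. Over all genes they lay above in 14.9% and below in 10.1%. The median log2 fold change was 0.56 over the 7 clade A genes and 0.024 over the 48, and the difference between these groups was not tested. With −N replicate 1 left out, the median of clade A was 0.28 and that of the others −0.14; without probe sets that may match several transcripts the median of clade A was 0.35, over 6 genes. PP2C37 is not among the names of the gene table, and PP2C49 and PP2C50 had no probe set of their own. The clade was assigned from general knowledge of the rice family, and no protein sequences were used here.

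PP2C30, a phosphatase that binds the rice ABA receptor PYL/RCAR5, had intensities of 49.7 and 42.8 in −N against 130.3 and 98.8 in +Glu. Both +Glu arrays lay far above both −N arrays, and PP2C30 had the largest fold change of the family at 2.46-fold. The log2 fold change was 1.30 (95% interval 0.67 to 1.92, unadjusted p = 0.00272, adjusted p = 0.641 from limma). PP2C68, also named OsPP108 and OsSIPP2C1, encodes a stress- and ABA-induced phosphatase. It was at 63.1 and 68.3 in −N against 168.7 and 113.9 in +Glu. The −N arrays were close together and the +Glu arrays 1.48-fold apart, both above −N. This gave a 2.11-fold difference (log2 1.08, 95% interval 0.40 to 1.76, unadjusted p = 0.0091, adjusted p = 0.735 from limma). Without +Glu replicate 1 its log2 fold change was 0.80, with an unadjusted p of 0.0985.

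PP2C08 was at 146.4 and 192.8 in −N against 258.0 and 239.3 in +Glu, so the groups did not overlap and the +Glu arrays were the closer pair. The difference was 1.48-fold (unadjusted p = 0.0632 from limma). PP2C09, known as a negative regulator of drought tolerance that promotes growth, was at 185.9 and 320.5 in −N against 341.8 and 393.9 in +Glu. Its −N arrays were 1.72-fold apart, more than the 1.5-fold difference between the groups, and −N replicate 2 lay just below +Glu replicate 1. The unadjusted p was 0.123 from limma, and without −N replicate 1 the log2 fold change was 0.20.

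The remaining clade A genes had overlapping groups. PP2C06, also named ABIL1, was at 407.7 and 440.4 in −N against 426.8 and 479.4 in +Glu, a 1.07-fold difference with a 95% interval of the log2 fold change from −0.45 to 0.64. PP2C53, or ABIL2, whose overexpression is known to make rice insensitive to ABA, was at 226.8 and 318.5 in −N against 219.4 and 273.8 in +Glu. Its log2 fold change was −0.13 (95% interval −0.82 to 0.55), the 1 value below 0 in the clade, and it turned to 0.11 when −N replicate 2 was left out. PP2C51, which acts in seed germination, was at 12.0 and 9.68 in −N against 12.3 and 11.2 in +Glu. These intensities are below the array medians, and the file has no detection calls, so whether PP2C51 was above background is not known. The intervals of these 3 genes exclude a 2-fold difference in either direction, but not smaller ones.

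**Figure D3:**
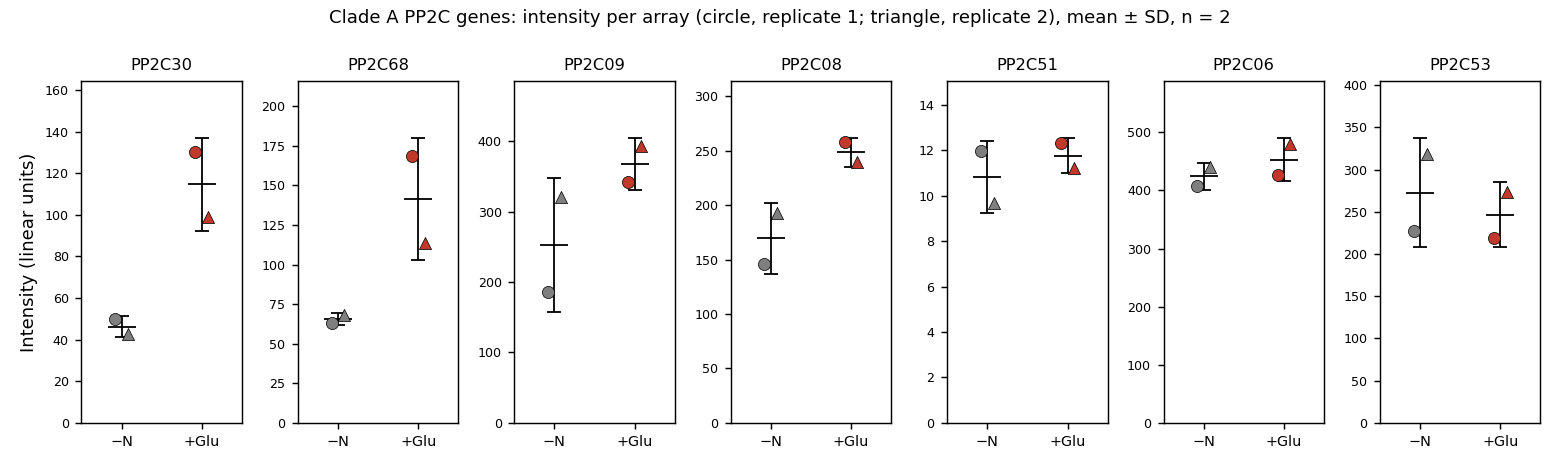
Intensity (linear units, axis from 0, 1 scale per gene) of the 7 measured clade A genes on each array, with the mean and SD of 2 arrays per group. In PP2C30, PP2C68, PP2C09 and PP2C08 both +Glu points lie above both −N points, and in PP2C51, PP2C06 and PP2C53 the groups overlap.

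Outside clade A, 5 PP2C genes had a fold difference above 1.6 between the groups. PP2C32 was at 181.2 and 169.1 in −N against 378.1 and 419.4 in +Glu. Both pairs of replicates were within 1.11-fold of each other, and the difference of 2.28-fold between the groups was larger than either gap. The log2 fold change was 1.19 (95% interval 0.65 to 1.72). This was the smallest p of the family in limma (unadjusted p = 0.00206, adjusted p = 0.628). PP2C78 was at 117.7 and 114.6 in −N against 210.2 and 245.5 in +Glu, 1.96-fold higher. Its −N arrays were 1.03-fold apart, and the unadjusted p was 0.00567 from limma (0.0786 when +Glu replicate 2 was left out). PP2C59 was at 10.1 and 10.7 in −N against 18.1 and 23.8 in +Glu, 1.99-fold higher (unadjusted p = 0.00769 from limma, and 0.0973 when +Glu replicate 2 was left out). PP2C59 was therefore below the median of all probe sets in both −N arrays and near it in +Glu, where a fold difference rests on little signal.

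PP2C27, a phosphatase known to act on a MAP kinase in the cold response of rice, was at 199.3 and 397.1 in −N against 450.0 and 673.6 in +Glu. All +Glu values were higher, but the −N arrays were 1.99-fold apart, as much as the 1.96-fold difference between the groups. The unadjusted p was 0.0594 from limma. The fold change depended on which −N array was used, with a log2 value of 0.47 without −N replicate 1 and 1.47 without −N replicate 2. PP2C29 was at 503.7 and 588.0 in −N against 805.0 and 992.7 in +Glu, a 1.64-fold difference (unadjusted p = 0.0265 from limma). Its groups did not overlap, but leaving out 1 array weakened the call: the unadjusted p rose to 0.0674 when −N replicate 1 was left out, to 0.0787 for +Glu replicate 1 and to 0.224 for +Glu replicate 2.

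In each of the 9 PP2C genes with the largest fold changes the groups did not overlap, which ranking by the same arrays favours. PP2C15, PP2C25 and PP2C14 were the other 3 genes of the 12 with both +Glu arrays above, at 1.24-fold, 1.22-fold and 1.14-fold, and their unadjusted p from limma was between 0.237 and 0.408. PP2C14 was at 2584 and 2490 in −N against 3019 and 2772 in +Glu. The small difference was larger than both gaps between replicates. PP2C02 (1.34-fold), PP2C57 (1.30-fold) and PP2C34 (1.25-fold), the last also known as BIPP2C2, had larger fold changes than these but overlapping groups, since −N replicate 2 was above +Glu replicate 1 in each.

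The 4 genes with both +Glu arrays below both −N arrays were PP2C64, PP2C75, PP2C60 and PP2C44. PP2C64 was at 365.0 and 445.8 in −N against 348.0 and 342.9 in +Glu, or 1.17-fold lower. PP2C75 was at 161.1 and 152.3 in −N against 136.7 and 135.0 in +Glu, 1.15-fold lower, with replicates within 1.06-fold of each other in both groups. PP2C60 was at 1108 and 1315 in −N against 1041 and 1065 in +Glu, 1.15-fold lower. None of the 4 reached an unadjusted p under 0.05 in limma, where the smallest of them was 0.362 (PP2C64). The largest fold difference in this direction was that of PP2C66, at 92.2 and 142.4 in −N against 79.2 and 102.7 in +Glu, 1.27-fold lower with overlapping groups (unadjusted p = 0.304 from limma). PP2C01, at 104.5 and 148.2 in −N against 89.7 and 123.6 in +Glu, and PP2C21, at 28.0 and 54.5 in −N against 22.3 and 51.6 in +Glu, overlapped as well. In PP2C21 the replicates were farther apart than the groups by far: the +Glu arrays differed 2.31-fold, and the groups 1.15-fold.

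**Figure D4:**
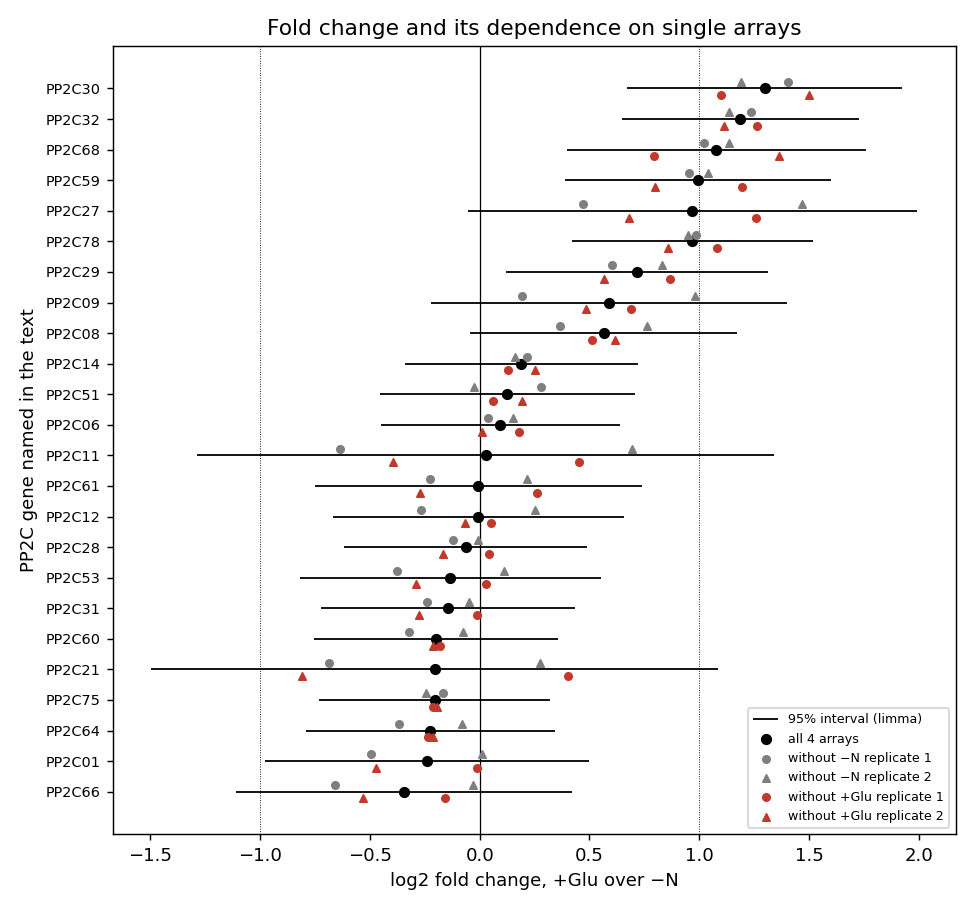
Log2 fold change (+Glu over −N) of the 24 PP2C genes described by the naming rule, with limma's 95% interval (line), the value from all 4 arrays (black) and the values with 1 array left out (coloured); dotted lines mark a 2-fold difference. PP2C30 and PP2C32 stay above a log2 value of 1 whichever array is left out, while PP2C27 ranges from 0.47 to 1.47 and PP2C11 from −0.64 to 0.69.

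PP2C35, PP2C40 and PP2C13, members with other names from earlier work, had overlapping groups. PP2C35, also named XB15, dephosphorylates the immune receptor kinase XA21, and its intensity was 574.9 and 617.2 in −N and 497.6 and 688.0 in +Glu. The −N values lay between the +Glu values, with a 95% interval of the log2 fold change from −0.66 to 0.61. PP2C40, also named OsPP65, was at 368.6 and 583.6 in −N against 477.1 and 613.4 in +Glu (1.17-fold, 95% interval of the log2 value −0.56 to 1.00). PP2C13, listed as DCW11, a gene known from cytoplasmic male sterility, was at 605.6 and 716.5 in −N against 599.3 and 672.2 in +Glu (95% interval of the log2 value −0.62 to 0.51). These 3 were chosen for their known roles after the values were seen. The intervals of PP2C35 and PP2C13 exclude a 2-fold difference, as did those of 38 of the 55 genes.

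The largest gap between the −N replicates was that of PP2C11, at 244.0 and 612.7 in −N against 293.8 and 528.8 in +Glu. Replicate 2 was the brighter by 2.51-fold in −N and by 1.80-fold in +Glu, while the group means differed 1.02-fold. Among the brighter probe sets, PP2C12 was at 1469 and 2107 in −N against 1681 and 1824 in +Glu, and PP2C28 at 1118 and 1211 in −N against 1035 and 1198 in +Glu. The +Glu values of PP2C12 lay between its −N values, and both genes had a fold difference of at most 1.05. Among the dimmest, PP2C61 was at 5.78 and 7.87 in −N against 5.59 and 8.09 in +Glu, and PP2C31 at 12.7 and 14.4 in −N against 11.2 and 13.4 in +Glu. Their groups overlapped, and the 95% interval of the log2 fold change was −0.75 to 0.74 for PP2C61 and −0.72 to 0.43 for PP2C31. In all, 8 of the 55 genes had a mean log2 intensity under 5, and of these PP2C59 had groups that did not overlap. Over all genes the +Glu arrays lay above in 14.9% and below in 10.1%.

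The other 31 members, whose values are not given per array except where named above, had log2 fold changes between −0.19 (PP2C26) and 0.43 (PP2C02). Of the 55 genes, 12 had more than 1 probe set of their own. In PP2C71 the probe set not used had a larger log2 fold change (0.50, against 0.15 for the brighter _x_at probe set that was used). The unused one was at 104.2 and 85.8 in −N against 152.2 and 117 in +Glu, so by it the groups did not overlap. The probe sets of PP2C14 differed in sign (0.19, and −0.17 for a probe set at 6.28 to 7.16). No gene had probe sets of opposite sign more than 0.5 apart. The 7 genes that gave an unadjusted p under 0.06 each had 1 probe set, so their fold changes have no second measurement on these arrays. PP2C16 and PP2C18 are the closest neighbours of the family in the RefSeq gene table, with 3 protein-coding genes between them. Their log2 fold changes were 0.096 and −0.017, both with overlapping groups.

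In the ABA pathway around clade A, levels were mixed and most genes had overlapping groups. The receptor gene PYL11, also named PYL5 and RCAR5, was the 1 receptor gene found by name. It was at 1830 and 2099 in −N against 1905 and 2667 in +Glu, with overlapping groups (1.15-fold, unadjusted p = 0.473 from limma). Of 10 SAPK kinase genes, 2 had both +Glu arrays above and 2 below, where 14.9% and 10.1% of all genes did. Among these 10, 0 had an unadjusted p under 0.05 in limma. Their median log2 fold change was 0.031, against 0.026 over all genes. SAPK2, a kinase that works with PP2C30 and PYL/RCAR5, was the highest at 1.39-fold, with 881.5 and 1388 in −N and 1390 and 1700 in +Glu. −N replicate 2 and +Glu replicate 1 of SAPK2 were nearly equal. SAPK7 (1.25-fold) was the other gene with both above, and SAPK1 (0.858-fold) and SAPK8 (0.941-fold) had both below. Of both bZIP factor genes of this pathway found by name, TRAB1, a factor that binds the ABA response element, was at 430.4 and 485.7 in −N against 361.6 and 392.9 in +Glu (0.825-fold, unadjusted p = 0.252 from limma), and ABF2, also named BZIP23, was at 1.16-fold with overlapping groups.

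Genes known to respond to ABA included 3 of 9 measured whose +Glu arrays were the higher pair, RAB21, RAB16B and Dhn1, and 0 whose +Glu arrays were the lower pair. Among all genes the higher pair was found in 14.9% and the lower pair in 10.1%. Of the 9, 2 were higher at an unadjusted p under 0.05 in limma and 0 were lower. For all genes these shares were 3.81% and 0.374%. On the log2 scale the 9 genes had a median of 0.22, against 0.026 for all genes. Whether the 9 differ from all genes was not tested. The dehydrin gene RAB21 was at 16.3 and 16.04 in −N against 33.1 and 24.9 in +Glu (1.77-fold, unadjusted p = 0.0168, adjusted p = 0.883 from limma). RAB16B, of the same gene family, was at 10.1 and 10.1 in −N against 17.2 and 17.7 in +Glu (1.73-fold, unadjusted p = 0.0109, adjusted p = 0.755 from limma). Both genes were below the array medians in −N. With +Glu replicate 1 left out, the unadjusted p in limma was 0.18 for RAB21 and 0.093 for RAB16B, and with +Glu replicate 2 left out it was 0.107 for RAB16B. The median of these 9 genes was −0.034 with +Glu replicate 2 left out. The dehydrin gene Dhn1 was at 1629 and 2617 in −N against 2993 and 3481 in +Glu, 1.56-fold higher with an unadjusted p of 0.081 from limma. The other dehydrin genes RAB16C and RAB16D had overlapping groups at 1.17-fold each, as did LEA3 (1.14-fold), salT (1.05-fold), rab25 (1.06-fold) and VP1 (0.940-fold). Among 3 genes of ABA synthesis and breakdown, ABA8OX2, which encodes an enzyme that inactivates ABA, was at 49.8 and 48.3 in −N against 59.2 and 61.5 in +Glu (1.23-fold, unadjusted p = 0.207 from limma), while ABA8OX1 (1.02-fold) and the zeaxanthin epoxidase gene ABA1 (1.30-fold) overlapped. The NADPH oxidase gene rbohB was at 1.26-fold with overlapping groups.

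**Figure D5:**
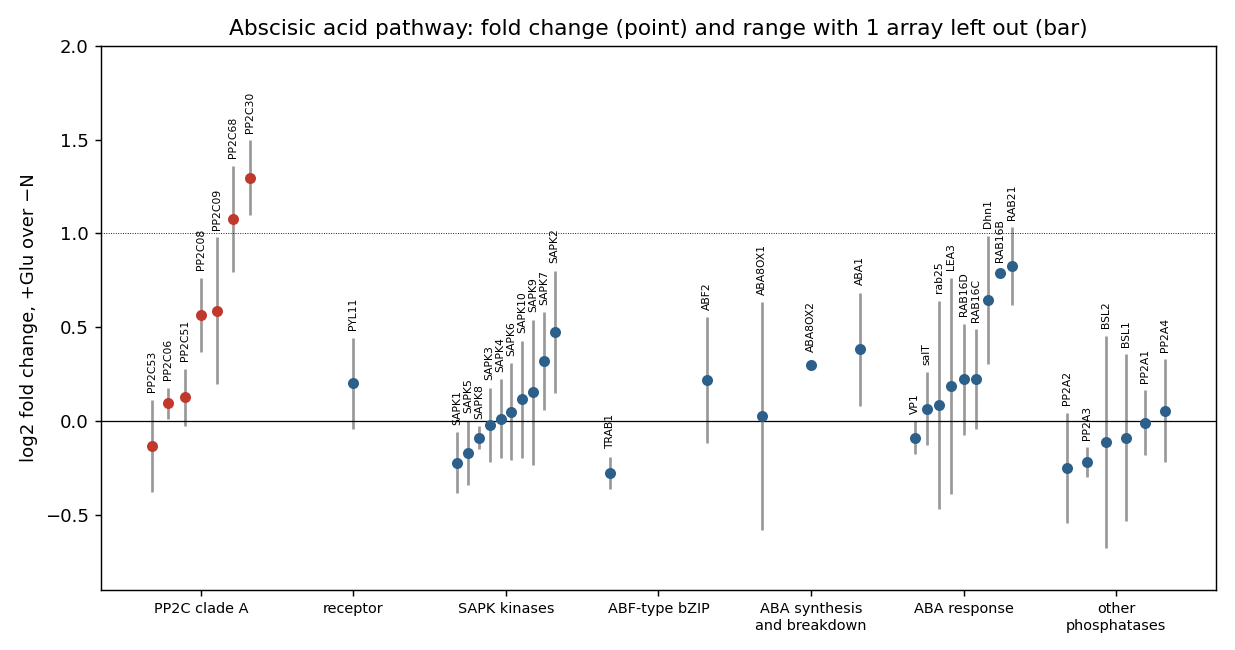
Log2 fold change (+Glu over −N) of each measured gene of the ABA pathway and of other phosphatase families, 1 point per gene ordered within its list, with a bar for the range when 1 array is left out; the dotted line marks a 2-fold difference. PP2C30 and PP2C68 are the 2 points above the dotted line, and the SAPK kinases lie between −0.22 and 0.47.

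Phosphatase genes outside the PP2C family, the catalytic subunits of PP2A and the BSL phosphatases, were set beside them. Of 6 found by name, the +Glu arrays were the higher pair in 0 and the lower pair in 1. Over all genes these shares were 14.9% and 10.1%. The gene with the lower pair was PP2A3, a PP2A phosphatase gene, at 1859 and 1801 in −N against 1491 and 1660 in +Glu (0.860-fold, unadjusted p = 0.35 from limma). Over the 6 genes the median was −0.10 on the log2 scale, and that of the highest, PP2A4, was 0.054. Whether the PP2C genes differ from these was not tested.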

How the data were processed

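Values deposited by the authors for the 4 arrays were linear intensity values of probe sets (3.15 to 21379). GCOS and RMA are named in the submitters' processing notes, with no version and no statement of how they were combined. Log2 was taken without a pseudocount, and +Glu was compared with −N in R 4.3.3 with limma 3.58.1 (lmFit, eBayes, no block, two-sided), with Benjamini-Hochberg adjustment over 17905 genes. Precision is limited by the number of arrays. After 123 Affymetrix controls were left out, a gene was represented by its brightest single-gene probe set over the 4 arrays, of 22436 such probe sets. All 17905 genes matched the RefSeq gene table of ASM3414082v1 by gene identifier; it gives no coordinates for the array's build, and none are printed. The fit was tested on simulated data. Members and lists were chosen with earlier results of these data known. Genes named are those with an unadjusted p under 0.05, the 6 with the largest fold change in each direction, clade A, the 3 brightest and 3 dimmest, the 3 with the widest replicate gap, those whose probe sets disagree in sign by over 0.5 log2, and up to 4 per other list; further names were added after values were seen. A PP2C gene with a synonym of another list, and TRAB1 (synonym aba1), were kept in 1 list. Guard cell markers, SLAC genes and RCc3 were not found by name. Sequence groups and promoter motifs were not analysed. The alternatives tried were a block for replicate number, leaving out each array (so that a lone array is taken to vary as the other group does), quantile normalization, median centring, a mean log2 of at least 5, log2(intensity + 16), the mean of all probe sets, no _x_at, _s_at or _a_at probe sets, Student's t-test and an eBayes trend. Figures used Python 3.11.15, pandas 2.3.3 and matplotlib 3.10.9.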

Additional observations from a re-analysis of the deposited data

How the results depend on the processing

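The PP2C genes past both the 2-fold limit and an unadjusted p under 0.05 in +Glu numbered 3 with all arrays and 3 to 5 with 1 array left out (PP2C68 was not among the 5 without +Glu replicate 1), 4 after quantile normalization or median centring, and 2 with log2(intensity + 16) or Student's t-test. The count of PP2C genes higher at an unadjusted p under 0.05, 6 with all arrays, was 3 to 11 with 1 array left out (3 without +Glu replicate 2, 11 without −N replicate 2, where 1.10% and 12.1% of all genes were called), and that of lower genes, 0 with all arrays, was 0 to 2 with 1 array left out (2 without −N replicate 1) and 1 with Student's t-test (PP2C75). The count past an adjusted p under 0.05 was 0 in every alternative that kept all 4 arrays. With 1 −N array left, its spread is taken from the +Glu pair, so adjusted calls of such fits are not read here. The unadjusted p values of such fits have the same limit.

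The order counts depended on single arrays: both above, 12 with all arrays, was 14 to 32 with 1 array left out and 19 after median centring, and both below, 4 with all arrays, was 4 to 24 with 1 array left out, 13 after quantile normalization and 7 after median centring. The order is easier to meet with 3 arrays: over all genes it was 18.9% to 57.8% above and 14.9% to 48.7% below with 1 array left out, and 21.6% above after median centring. Of all 17905 genes, 2742 were below after quantile normalization and 1464 after median centring. The median log2 fold change of the PP2C genes ranged from −0.12 to 0.25 with 1 array left out and was −0.016 after quantile normalization. That of the SAPK list ranged from −0.20 to 0.27 and that of the ABA response list from −0.034 to 0.64; without _x_at, _s_at and _a_at probe sets the latter was 0.65 over 5 genes.

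The labels give same-numbered arrays a common number and no other link. With the replicate number as a block, the count of PP2C genes higher at an unadjusted p under 0.05 was 10, PP2C08, PP2C09 and PP2C27 (unadjusted p = 0.00307 in limma) among them, where the share of all genes went from 3.81% to 7.85%, and 0 passed after adjustment; the replicate gaps of both groups correlated at r = 0.43 over all genes and 0.53 over the PP2C genes.

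Reversed log2 fold changes were all in genes without a call. Quantile normalization gave −0.056 for PP2C11 and 0.033 for PP2C61, and median centring 0.023 for PP2C12 and 0.024 for PP2C61. With 1 array left out the range was −0.49 to 0.011 for PP2C01, −0.64 to 0.69 for PP2C11, −0.27 to 0.25 for PP2C12, −0.81 to 0.40 for PP2C21, −0.17 to 0.042 for PP2C28, −0.025 to 0.28 for PP2C51, −0.38 to 0.11 for PP2C53 and −0.27 to 0.26 for PP2C61. The higher genes kept their direction in every alternative run. With 1 array left out, the log2 fold change was at least 1.10 for PP2C30 and at least 1.11 for PP2C32. Over all genes the 2-fold calls were 301 higher and 8 lower, and 105 and 4 with Student's t-test. Probe sets near the lowest intensities limit what can be seen.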
